A study of Arabidopsis thaliana with 15 samples.

Results

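Cytosolic ribosomal protein genes of Arabidopsis thaliana were followed in Cap Analysis of Gene Expression (CAGE) libraries of flg22-treated seedlings. The genes were taken from a list of 45 locus identifiers, 36 for the small ribosomal subunit and 9 for the large subunit, and the rule that lists them names no measured value. Counts were found for 43 of the 45, all 36 small-subunit genes and 7 large-subunit genes, among 18934 genes with counts. All 43 passed the filter on low counts and were among the 18879 genes tested.

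The study gave whole Col-0 seedlings flg22, a peptide of bacterial flagellin that plants sense through a receptor kinase, and sequenced capped RNA 5′ ends. Every seedling was 14 days old, had spent 48 h in liquid medium, and received 3.3 µM flg22 in DMSO. In all, 5 groups of 3 libraries each were used: hen2-4 after 30 min, hen2-4 after 10 min, rrp4-2 after 30 min, wt after 30 min and wt after 10 min. hen2-4 is a T-DNA insertion in HEN2, the helicase that hands nucleoplasmic RNA to the nuclear exosome. rrp4-2 is a point mutation and a weak allele of the exosome core subunit RRP4. Each library came from a pool of 10 whole seedlings, so root and shoot RNA are mixed, and no untreated library entered the comparisons, so "time change" means 30 min against 10 min of flg22.

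Ribosomal proteins of the cytosol assemble with ribosomal RNA in the nucleolus into a small subunit, which decodes mRNA, and a large subunit, which forms the peptide bond. Arabidopsis carries small families of closely related genes for most of them, and these genes are highly transcribed wherever cells grow. Many plant ribosomal protein promoters hold the telo box AAACCCTA close to the start of transcription and site II elements (TGGGCC or TGGGCT) further upstream.

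Libraries held 13904125 to 24753128 tags in genes, and the 43 genes took 1.46% to 1.95% of them. Levels are given in CPM, counts scaled to a common library size, with TMM factors that correct for composition. A CAGE tag marks 1 capped 5′ end, so a level does not grow with transcript length and genes were compared on this scale without a length correction. HEN2 itself averaged 6.35 ± 2.02 CPM in hen2-4 and 44.4 ± 11.5 CPM in wt at 30 min, and 9.79 ± 0.71 CPM in hen2-4 and 42.3 ± 6.77 CPM in wt at 10 min (SD, n = 3 each). RRP4, which carries a point mutation in rrp4-2, was not lower in rrp4-2 (21.2 CPM) than in wt (18.2 CPM). One library stood apart for the genes described here: wt 30 min replicate 3 was the highest of its group in 41 of the 43 and the highest of all 15 libraries in 32. Its TMM factor was the lowest, 0.821, which raises its CPM. Without this factor, the 43 genes took 1.95% of its tags, against 1.49% and 1.52% in the other wt 30 min libraries. The share was 1.94% in hen2-4 30 min replicate 3 and 1.93% in wt 10 min replicate 1. That library also had the lowest sum of 5 root marker genes in its group, 57.7 CPM against 163 and 133 CPM in the other wt 30 min libraries, and the part of tissue makeup in its values was not tested.

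The highest gene of the set was P40 (AT1G72370), which encodes protein SA of the small subunit, with a mean of 1805 CPM over the 15 libraries. AT5G07090, a gene for the small-subunit protein S4, followed with 1403 CPM, and AT1G01100, which encodes the acidic protein P1 of the large-subunit stalk where elongation factors dock, with 1323 CPM. P40 stood at rank 40 of all genes tested. At the low end were AT5G39850 (S9) with 11.1 CPM, AT4G30800 (S11) with 24.3 CPM and RPS6 (AT4G31700) with 32.9 CPM. RPS6 is 1 of the 2 genes measured here for S6, the small-subunit protein phosphorylated in response to TOR signalling. The set thus spanned 163-fold, with a median of 237 CPM, 35 genes at 100 CPM or more and 4 under 50 CPM. All but AT5G39850 lay above the median level of all genes tested.

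**Figure D1:**
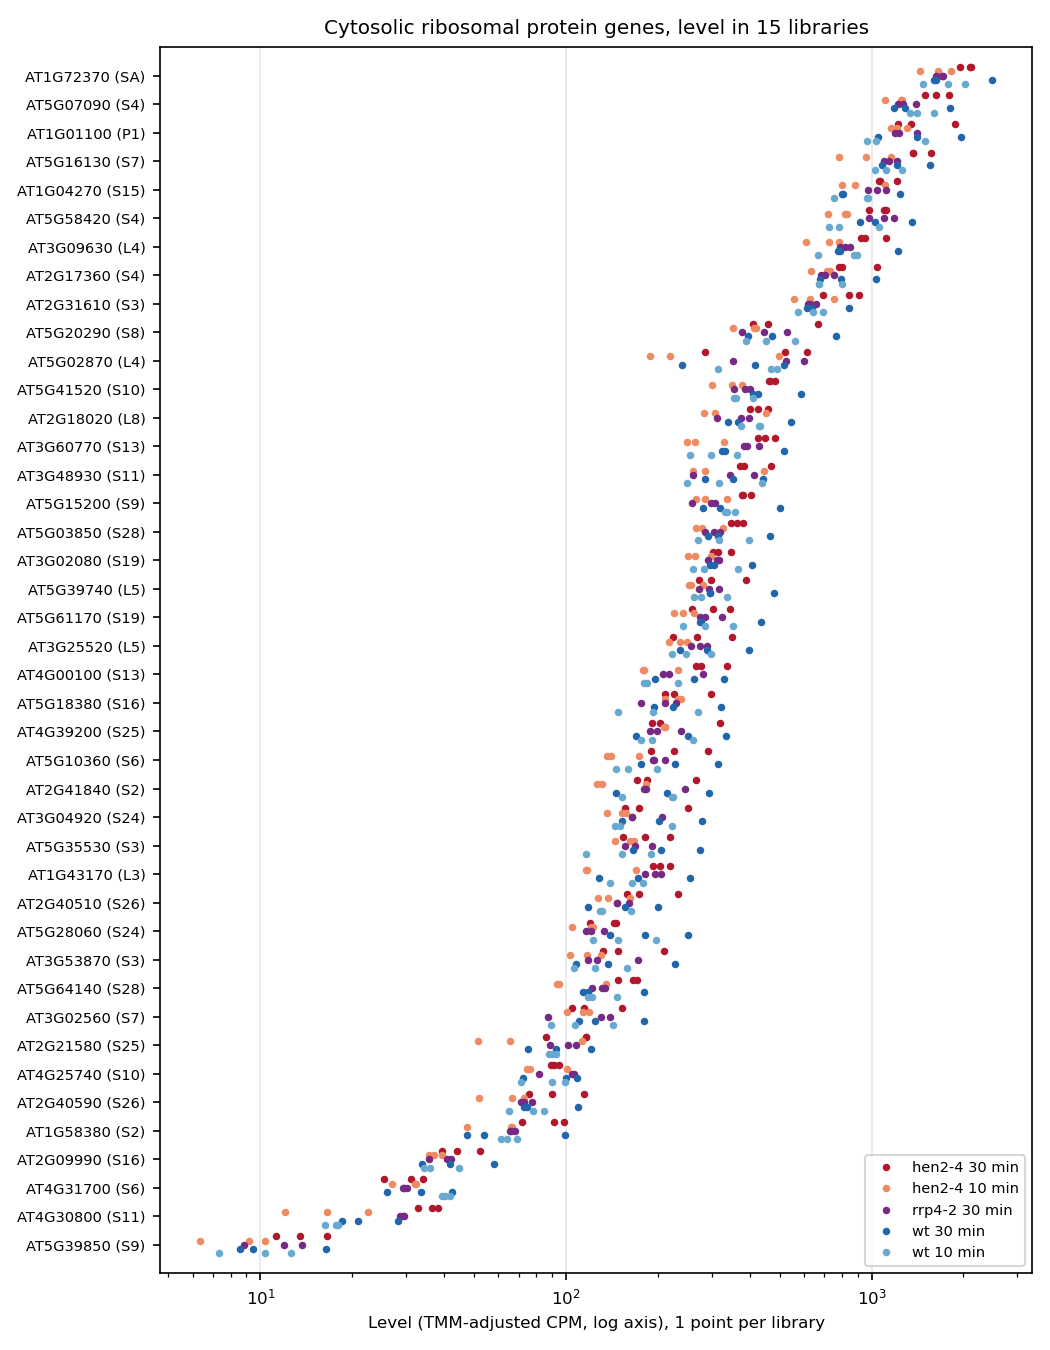
CAGE level of 42 of the cytosolic ribosomal protein genes, ordered by mean CPM, with 1 point per library on a log axis and the 5 groups in colour. Levels run from 11.1 CPM (AT5G39850) to 1805 CPM (P40), and for most genes the groups lie close together beside the distance between genes.

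Sequences upstream of 4 of these genes, each 150 bases ending just before the annotated start, show where site II letters, and in AT5G07090 and AT5G16130 a telo box, stand before the annotated start. They are P1 AT1G01100 (chr1:51211-51360, minus strand), S4 AT5G07090 (chr5:2202214-2202363, plus strand), S7 AT5G16130 (chr5:5268271-5268420, plus strand) and EMB3010 (AT5G10360, the higher of the 2 S6 genes measured, chr5:3260255-3260404, minus strand). They were read from the RefSeq genome TAIR10.1, and capitals mark the site II and telo box letters named above or their reverse complements.
AT1G01100: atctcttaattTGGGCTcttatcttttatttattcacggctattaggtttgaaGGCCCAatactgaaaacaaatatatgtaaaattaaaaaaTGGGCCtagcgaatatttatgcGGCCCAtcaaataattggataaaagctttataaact
AT5G07090: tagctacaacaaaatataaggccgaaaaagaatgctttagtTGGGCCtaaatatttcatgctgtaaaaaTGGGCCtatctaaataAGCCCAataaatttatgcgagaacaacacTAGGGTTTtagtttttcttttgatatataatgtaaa
AT5G16130: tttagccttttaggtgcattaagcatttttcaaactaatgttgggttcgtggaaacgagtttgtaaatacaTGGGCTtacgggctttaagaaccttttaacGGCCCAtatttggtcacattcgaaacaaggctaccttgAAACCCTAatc
EMB3010: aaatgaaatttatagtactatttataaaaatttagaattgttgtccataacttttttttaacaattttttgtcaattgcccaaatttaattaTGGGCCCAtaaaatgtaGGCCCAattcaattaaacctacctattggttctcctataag
The telo boxes of AT1G01100 and EMB3010 lie after the annotated start and so outside these stretches. AT1G01100 has 4 site II matches in its stretch, AT5G07090 has 3 and a telo box on the opposite strand, and the TGGGCCCA of EMB3010 reads TGGGCC on both strands.

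Shorter stretches of 30 bases show a telo box in P40 and in the 6 genes called higher at 30 min in hen2-4. None of the 6 was called in wt. Positions are counted from the midpoint of the main tag cluster, the place where the 5′ ends of the gene's tags lie. The box nearest this midpoint is shown.
AT4G30800 at -1 (chr4:15001148-15001177, plus strand): aaagccgtgatTAGGGTTTttggttttcgt
AT3G60770 at -38 (chr3:22461736-22461765, minus strand): aagaagcaattTAGGGTTTgtggattctct
RPS10B at -19 (chr5:16610657-16610686, minus strand): tcagtcgaaatTAGGGTTTcgcgttaggag
RPS28 at 12 (chr5:25668263-25668292, minus strand): ttttccgattcTAGGGTTTttctttggcaa
EMB3010 at -15 (chr5:3260213-3260242, minus strand): actttctcgcaAAACCCTAaaagctgagcc
AT5G16130 at -74 (chr5:5268399-5268428, plus strand): aggctaccttgAAACCCTAatcatcgaaca
P40 at -133 (chr1:27244956-27244985, minus strand): attttgcaaatTAGGGTTTtgcttgatata
The box, in capitals, faces either way relative to transcription, and its distance from the midpoint differs from gene to gene. The midpoint is not itself a measured start, since the main cluster is 86 bp wide in AT4G30800 and 240 bp in P40.

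The telo box AAACCCTA, searched on both strands from 250 bases before to 50 after the midpoint of the main tag cluster, was present in 40 of the 43 ribosomal protein genes (93.0%). In windows of the same size it was present in 9.84% of all 18840 nuclear genes and in 16.1% of the 1921 nuclear genes of at least 100 CPM. TGGGCC was found in 33 of the 43 (76.7%, against 19.6% of all genes and 28.3% of genes of at least 100 CPM) and TGGGCT in 27 (62.8%, against 17.5% and 23.2%). Telo box and at least 1 site II match stood together in 36 of the 43 windows (83.7%, against 4.21% and 10.0%). The TATA letters TATAAA were present in 25 (58.1%, against 48.9% and 52.2%).

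The matches also kept different distances. The median position of the telo box was -32.5 bases from the midpoint, and 42 of 46 matches lay within 100 bases of it, with 24 of the 46 on the opposite strand. Site II letters lay further away, at a median of -114.5 bases from the midpoint for TGGGCC and -112.5 for TGGGCT, and 94 of 104 matches fell 50 to 200 bases before it. AT5G18380 (S16), AT5G39850 (S9) and AT5G61170 (S19) had no telo box in the window. P40, AT2G09990 (S16), AT3G09630 (L4), AT5G03850 (S28) and AT5G18380 had no site II match in the window, so that AT5G18380 alone had neither. The window rests on the TC midpoint: AT3G09630, whose main TC is 502 bp wide, has 4 site II matches in the 150 bases before its annotated start. These matches describe the letters only.

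Tags whose 5′ ends lay within 20 bp of each other had been joined into tag clusters (TCs), and the 43 genes held 70 of them. The cluster with the most tags, called the main TC here, had its midpoint in the annotated 5′ UTR in 38 genes, in a coding exon in 4 and in an intron in 1. The main TC was 123 bp wide at the median (interquartile range 100.5 to 174.5), against 131 bp for all genes and 199 bp for the genes of at least 100 CPM. The genes of at least 100 CPM are the closer comparison for genes of this level. Of the 43, 37 were narrower than 199 bp, and among the 35 that were themselves at 100 CPM or more the median was 130 bp, with 29 narrower.

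AT3G25520, also called ATL5, which encodes the 5S rRNA binding protein L5, had the narrowest main TC at 63 bp, followed by RP1 (AT1G43170), the gene of the large-subunit core protein L3, at 65 bp and AT4G25740 (S10) at 68 bp. The broadest were those of AT3G09630 (L4, a protein lining the exit tunnel) at 502 bp, AT2G41840 (S2) at 310 bp and P40 at 240 bp. The midpoint lay within 100 bp of the annotated 5′ end in 29 of the 43 genes (67.4%), against 50% of all genes and 40.2% of genes of at least 100 CPM. The median distance was 76 bp in the ribosomal protein genes, against 99 and 121 bp.

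**Figure D2:**
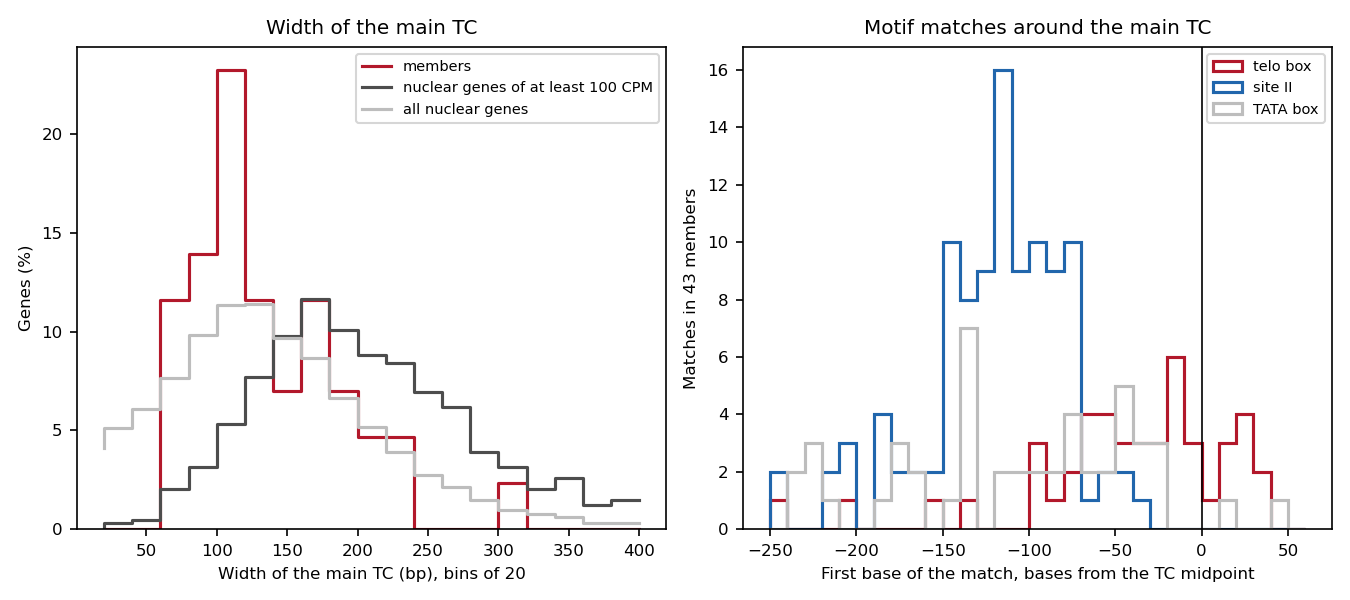
Left, width of the main TC in 20-bp bins up to 400 bp for the ribosomal protein genes and the comparison genes (1 member of 502 bp lies beyond the axis). Right, position of each telo box and site II match relative to the midpoint of the main TC, with telo boxes around -32.5 and site II letters around -114.5 and -112.5 at the median.

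Nearly every gene used 1 start region. When a TC had to hold at least 10% of a gene's tags in 3 libraries, 41 of the 43 had a single TC (95.3%), against 91.3% of all genes and 98.4% of genes of at least 100 CPM. The number was 41 with a limit of 5% (89.4% of all genes and 96.7% of genes of at least 100 CPM). It was 42 with 20% (97.7%, against 93.9% and 99.5%). With no limit it was 28 (65.1%, against 82.7% and 58.2%). The 27 minor TCs were small, with a median of 0.189% of the gene's tags, and 26 of them lay in coding exons and 1 in a 3′ UTR. Whether the coding-exon clusters mark starts of transcription or recapped fragments was not tested.

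The first exception was RPS6 on chromosome 4, minus strand. Its main TC (15347584 to 15347762, 179 bp) had its midpoint in an intron and held 52.0% of the tags, and clusters in coding exons at 15346685 to 15346916 and 15347044 to 15347136 held 24.2% and 23.8%. No TC of RPS6 was called for changed use in any of 5 comparisons (limma diffSplice). Its level, 32.9 CPM, was the third lowest of the set.

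The other was AT2G09990, a gene for S16, on chromosome 2, plus strand. Beside its main TC (3781347 to 3781439) it had a TC of 4 bp in the 3′ UTR (3781885 to 3781888), which held 8.63% of its tags on average. This 3′ UTR TC had 2.20, 2.92 and 1.83 CPM in hen2-4 at 30 min, against 5.04, 6.40 and 3.46 CPM in hen2-4 at 10 min. All 3 values at 30 min lay below all 3 at 10 min, and the log2 change was -1.10 (edgeR adjusted p = 0.0324). The main TC of the gene had 41.0, 35.6 and 50.4 CPM in hen2-4 at 30 min, against 29.3, 29.3 and 34.5 CPM at 10 min, and did not overlap either. The use of the 2 TCs differed by a log2 value of -1.50 for the 3′ UTR TC (diffSplice adjusted p = 0.0193). In wt the same TC had 3.17, 6.68 and 2.50 CPM at 30 min, against 3.68, 3.19 and 4.08 CPM at 10 min. These values overlapped (log2 0.17, edgeR adjusted p = 0.771). Between the genotypes, hen2-4 against wt, its use differed by a log2 value of 0.56 at 10 min (diffSplice adjusted p = 0.724). At 30 min the value was -0.81 (diffSplice adjusted p = 0.517), and neither was called. A difference between the genotypes in the time change of this TC is not given here. The hen2-4 call was lost (edgeR adjusted p up to 0.137) without hen2-4 10 min replicate 1 or 2 or hen2-4 30 min replicate 1 or 3. Use within a gene was tested for the 5 TCs of AT2G09990 and RPS6 under the 10% rule. Of these 5, the 2 of AT2G09990 were called in hen2-4 over time (background 8.84%), and 0 were called in wt over time (10.3%), in hen2-4 against wt at 10 min (3.74%) or 30 min (1.90%), or in rrp4-2 against wt (4.10%), with 0 at an unadjusted p of 0.05 in each of these by diffSplice, the one tool run.

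The 2 listed genes with no counts, PGY2 (AT1G33140) and AT1G33120, encode the large-subunit protein L9 and lie on chromosome 1, plus strand, at 12023225 to 12024783 and 12010879 to 12012547. They share a block of 1466 identical bases over their start regions. Reads were trimmed to 25 bases and kept when they mapped to 1 place, and 0 of 200 positions around each annotated start (50 before, 150 from it) gave a 25-base sequence found once in the genome. The first 30 bases of each annotated transcript are printed to identify these starts, and the PGY2 stretch also stands 28 bases before the annotated start of AT1G33120.
PGY2: aaaggcccacatatgaaagatatttagggt
AT1G33120: gttttttctcttgataccttttaaaacgcc
The level of L9 was not measured here. In the main TCs of the other genes, all 25-base sequences were unique in 38 of 43, with a lowest share of 91.4% in AT2G09990.

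At least 2 paralogs were measured in 17 families, 37 genes in all, and in 15 of the 17 the same paralog was highest in all 15 libraries. Shares are of the tags of a family's listed genes with counts, and family genes outside the list were not included. One gene took at least 80% of these tags in 5 families. AT5G15200 took 96.8% of S9 (95.6 to 97.9 over libraries) and AT5G16130 90.7% of S7. EMB3010 took 85.2% of S6, AT5G18380 84.5% of S16 and RPS10B (AT5G41520) 81.6% of S10. In other families the load was spread. S4 was divided 44.6%, 31.1% and 24.4% among AT5G07090, AT5G58420 and AT2G17360, and L5 was divided almost evenly, with RPL5B (AT5G39740) at 53.0%. AT3G02080 held 51.4% of S19 and was the higher paralog in 11 of 15 libraries.

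The leading share fell between these extremes in 8 further families. It was 73.4% in S2 (AT2G41840), 71.3% in S28 (AT5G03850), 70.1% in S25 (AT4G39200), 68.5% in S3 (AT2G31610), 67.7% in L4 (AT3G09630), 66.6% in S26 (AT2G40510), 60.6% in S13 (AT3G60770) and 55.7% in S24 (AT3G04920).

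**Figure D3:**
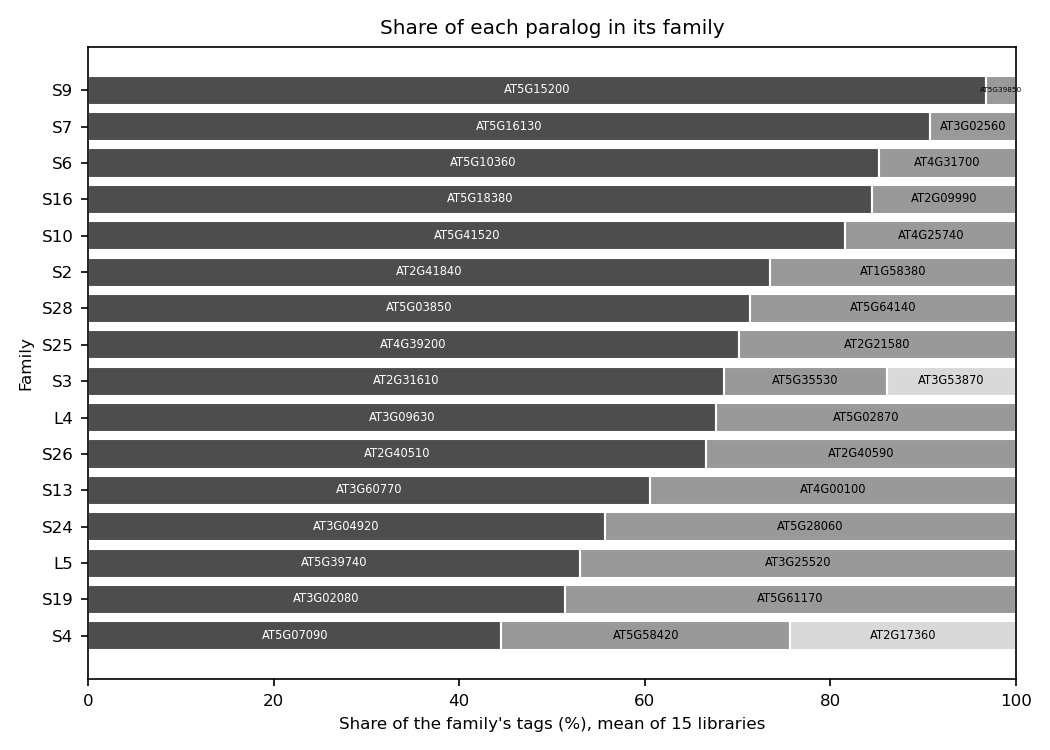
Share of each paralog in the tags of its family's listed genes, in 16 families with at least 2 measured genes, as stacked bars of the mean over 15 libraries. Among the listed genes, S9 is almost wholly 1 gene (96.8%), while S4 is divided among 3 genes (44.6%, 31.1% and 24.4%).

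In wt, no ribosomal protein gene passed the test for a change between 30 and 10 min of flg22. The median log2 change was 0.19, against 0.01 for all genes tested, and 40 of the 43 values were positive, against 50.5% of all genes. By edgeR's quasi-likelihood test 0 of the 43 were higher (background 12.2%) and 0 lower (7.72%) at an adjusted p of 0.05. At an unadjusted p of 0.05 there were 3 of 43, and limma voom and DESeq2 each called 0. The fitted values ran between -0.25 (RPS6) and 0.51 (EMB3010), with a median SE of 0.20.

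The positive median in wt rested on 1 library. Without wt 30 min replicate 3, the median was -0.03 and 18 of the 43 values were positive, whereas it was 0.33 without wt 30 min replicate 1 and 0.31 without wt 10 min replicate 1. Scaling by library size alone moved the median of all genes to -0.25 and that of the ribosomal protein genes to -0.088, with 14 positive. Summed over the 43 genes, wt libraries had 15472, 16231 and 23729 CPM at 30 min, against 18489, 15470 and 14797 CPM at 10 min, so the 2 groups overlapped. The 5 dividing-cell marker genes summed to 54.9 to 58.0 CPM in wt at 30 min, against 85.2 to 98.6 CPM at 10 min, 4 of the 5 called lower. Among 5 root markers 3 were called lower (median -0.83) and among 4 shoot markers 2 (median -0.72), with root sums of 57.7 to 163 CPM at 30 min, against 114 to 180 CPM at 10 min, and shoot sums of 7702 to 10128 CPM, against 9100 to 11872 CPM. In whole seedlings, fewer cells of a type and less RNA per cell cannot be told apart, and their part in these values was not tested.

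In hen2-4, 6 small-subunit genes were higher at 30 min than at 10 min, 1 of them by at least 2-fold, and none was lower. The 6 were AT4G30800 (S11), AT3G60770 (S13), EMB3010 (S6), RPS28 (AT5G64140, S28), AT5G16130 (S7) and RPS10B (S10). Of all genes tested, 12.0% were called higher and 9.83% lower at an adjusted p of 0.05, and 6.00% were called higher and 5.31% lower with a log2 change of at least 1, so 6 of 43 is near the background. The median log2 change was 0.38, against 0.00 for all genes, and 42 of the 43 values were positive, RPS6 being at -0.01. With library sizes alone the median was 0.13, against -0.24 for all genes, and 34 values were positive. AT4G30800 was then the 1 gene called, against 7.3% of all genes called higher. Summed TMM-scaled CPM over the 43 genes was 18597, 18221 and 21411 in hen2-4 at 30 min, against 14845, 13327 and 16450 in hen2-4 at 10 min, which did not overlap. Without TMM factors the groups overlapped. The 43 genes took 1.78%, 1.76% and 1.94% of tags in hen2-4 at 30 min, against 1.65%, 1.46% and 1.88% at 10 min. Marker sums in hen2-4 at 30 min against 10 min were 106 to 117 against 112 to 131 CPM for 5 root genes, 56.6 to 64.5 against 64.5 to 70.0 CPM for 5 dividing-cell genes and 5528 to 7594 against 6907 to 9568 CPM for 4 shoot genes, of which 1, 0 and 2 were called lower, and their part was not tested.

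AT4G30800, a gene for the small-subunit protein S11, had 38.1, 36.3 and 32.9 CPM in hen2-4 at 30 min, against 16.5, 12.1 and 22.4 CPM in hen2-4 at 10 min. The groups did not overlap, and the log2 change was 1.07 (SE 0.20, edgeR adjusted p = 0.00137). In wt it had 20.9, 18.5 and 28.1 CPM at 30 min, against 16.2, 18.0 and 17.7 CPM at 10 min, with a log2 value of 0.38 (edgeR adjusted p = 0.197). rrp4-2 at 30 min gave 28.6, 29.3 and 29.5 CPM. The call in hen2-4 was kept in all 21 alternative settings (log2 0.82 to 1.29, edgeR, voom or DESeq2 adjusted p 1.24e-05 to 0.00807), although the log2 value fell under 1 without hen2-4 10 min replicate 2 and with library sizes alone. Its paralog EMB1080 (AT3G48930) had a log2 value of 0.31 in hen2-4, without a call.

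AT3G60770, a gene for S13, which takes part in a bridge between the subunits, had 448, 425 and 484 CPM in hen2-4 at 30 min, against 265, 249 and 329 CPM at 10 min. No value overlapped (log2 0.68, SE 0.19, edgeR adjusted p = 0.0191). Its paralog RPS13A (AT4G00100) had a log2 value of 0.57 and no call (edgeR adjusted p = 0.0535).

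EMB3010, the higher of the 2 S6 genes measured, had 189.9, 226 and 291 CPM in hen2-4 at 30 min, against 136, 141 and 174 CPM at 10 min. These did not overlap (log2 0.65, SE 0.21, edgeR adjusted p = 0.0394), and the wt value was 0.51 (edgeR adjusted p = 0.105). The other S6 gene, RPS6, had 31.2, 34.2 and 25.4 CPM in hen2-4 at 30 min, against 32.1, 26.9 and 32.2 CPM at 10 min. The S6 genes thus differed in sign in wt as well, where RPS6 was at -0.25 (edgeR adjusted p = 0.325).

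RPS28 had 148, 165 and 170 CPM in hen2-4 at 30 min, against 93.5, 94.8 and 135 CPM at 10 min, a log2 change of 0.58 with an SE of 0.19 (edgeR adjusted p = 0.0397). Its more abundant paralog AT5G03850 had a log2 value of 0.32 without a call. AT5G16130, the higher of the 2 S7 genes measured, had 1371, 1367 and 1567 CPM in hen2-4 at 30 min, against 963, 781 and 1160 CPM at 10 min. Its log2 change was 0.57 with an SE of 0.17 (edgeR adjusted p = 0.0291). RPS10B had 466, 463 and 481 CPM in hen2-4 at 30 min, against 350, 301 and 377 CPM at 10 min, a log2 change of 0.46 with an SE of 0.15 (edgeR adjusted p = 0.0452). In these 3 genes too, every value at 30 min lay above every value at 10 min.

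**Figure D4:**
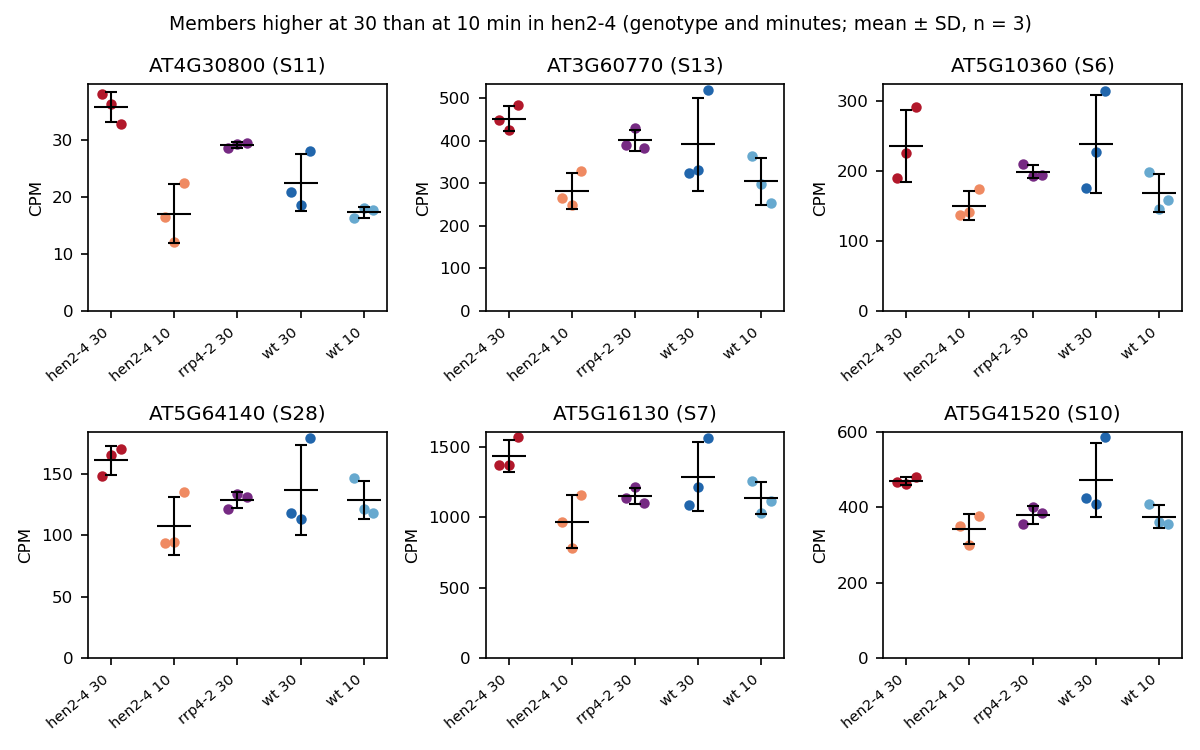
CPM per library of the 6 ribosomal protein genes higher at 30 min in hen2-4, with mean ± SD, in the order hen2-4 30 min, hen2-4 10 min, rrp4-2 30 min, wt 30 min and wt 10 min. In each gene the 3 hen2-4 libraries at 30 min lie above those at 10 min, as for AT4G30800 with 32.9 to 38.1 against 12.1 to 22.4 CPM.

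Both the scaling and single libraries bore on 5 of the 6 calls. Without hen2-4 10 min replicate 1, hen2-4 10 min replicate 2 or hen2-4 30 min replicate 3 only AT4G30800 was called, and without wt 30 min replicate 3 the count was 13. It was 3 without hen2-4 30 min replicate 1 or 2 or rrp4-2 30 min replicate 2 or 3, and 10 without hen2-4 10 min replicate 3. Values at 30 min lay above all values at 10 min in 21 of the 43 genes in hen2-4, against 21.7% of all genes, and in 1 of the 43, AT4G30800, in wt, against 17.1%. The large-subunit genes had medians of 0.30 in hen2-4 and 0.20 in wt with edgeR calling 0 of 7 in either (2 in hen2-4 and 0 in wt at an unadjusted p of 0.05). Limma voom and DESeq2 each called RP1 in hen2-4 and none in wt. The smallest edgeR adjusted p among them was 0.0558 in hen2-4 (RP1, 219, 192 and 203 CPM at 30 min, against 116, 117 and 170 CPM at 10 min). The 36 small-subunit genes had medians of 0.38 in hen2-4 and 0.18 in wt.

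**Figure D5:**
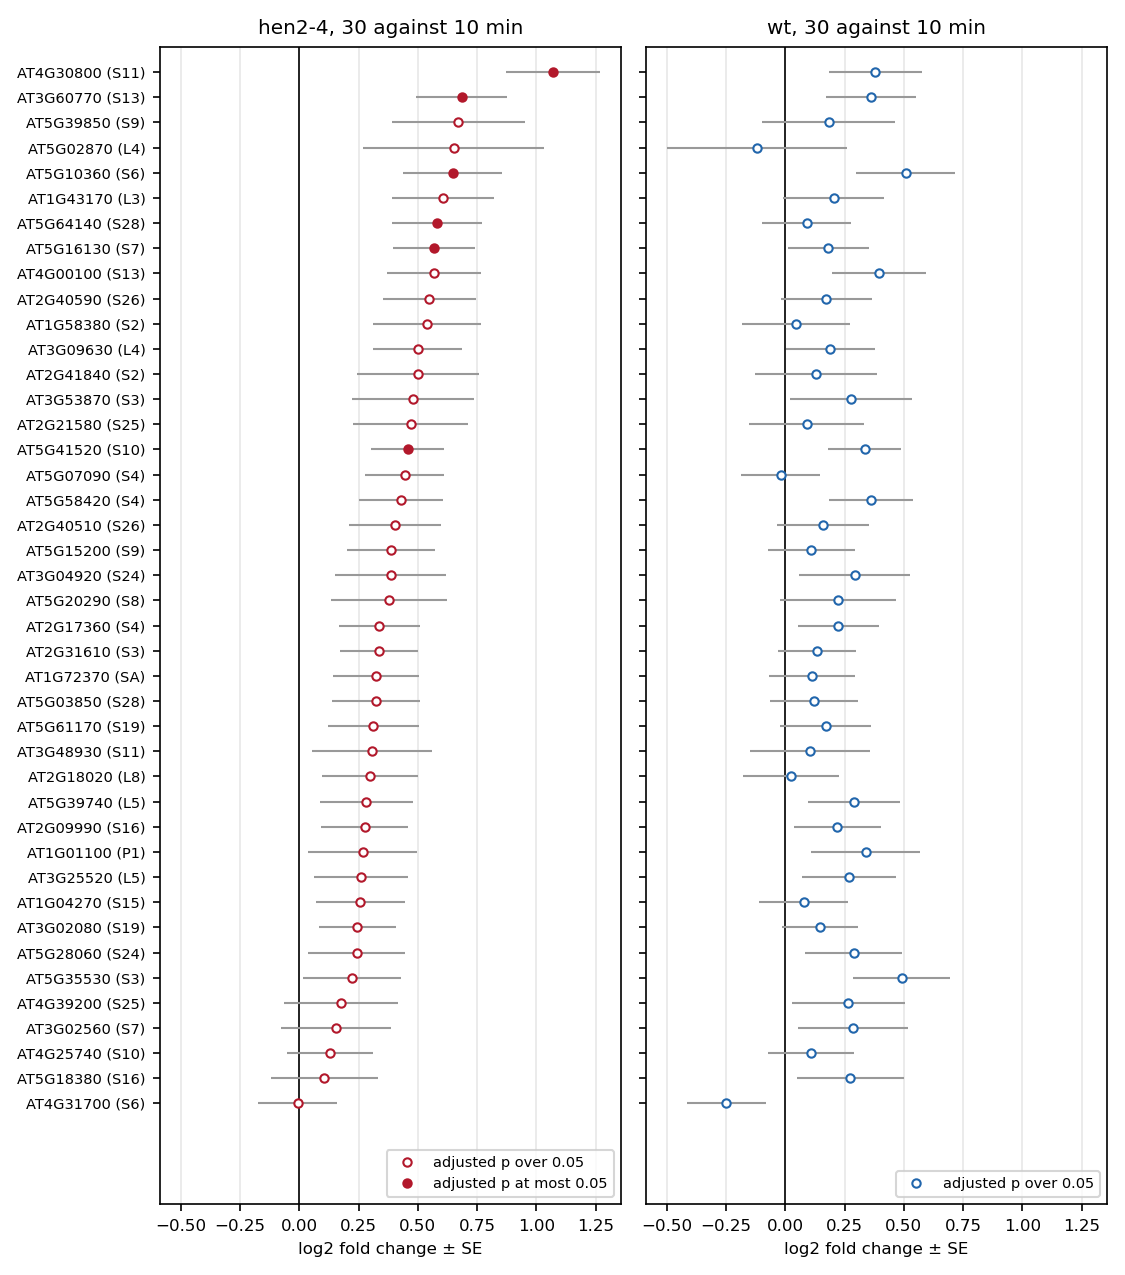
Log2 change (30 min against 10 min, ± SE) of 42 of the genes in hen2-4 (left) and wt (right), with filled points for an adjusted p of at most 0.05. All but 1 point in hen2-4 and 3 in wt lie right of 0, with medians of 0.38 in hen2-4 and 0.19 in wt over the whole set of 43, and the 6 filled points are all in hen2-4.

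Other paralogs that differed in sign over time gave no call. The L4 gene AT5G02870 varied between replicates, at 617, 519 and 285 CPM in hen2-4 at 30 min, against 188, 219 and 497 CPM in hen2-4 at 10 min. Its log2 values were 0.65 in hen2-4 and -0.12 in wt, while the other L4 gene AT3G09630 had 0.50 and 0.19. Among the S4 genes AT5G07090 had a wt value of -0.02, against 0.36 for AT5G58420 and 0.22 for AT2G17360, and all 3 were positive in hen2-4 (0.44, 0.43 and 0.34).

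The time change was not shown to differ between the genotypes. The difference of the log2 changes, hen2-4 minus wt, had a median of 0.20 over the 43 genes, against -0.04 over all genes. With 1 library left out this median ran from 0.056 (without wt 10 min replicate 1) to 0.41 (without wt 30 min replicate 3), and it was 0.075 without wt 30 min replicate 1, 0.10 without wt 30 min replicate 2, 0.11 without hen2-4 10 min replicate 2 and 0.091 without hen2-4 30 min replicate 3. edgeR called 0 of 43 and 0 of 18879 (background 0%), with 1079 of all genes at an unadjusted p of 0.05 and 0 by limma voom or 15 by DESeq2. AT4G30800 was the single gene of the set at an unadjusted p of 0.05 (difference 0.69, edgeR adjusted p = 0.868), and limma voom and DESeq2 called 0 of the set.

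In hen2-4 against wt at 10 min, no ribosomal protein gene passed the test. The median log2 difference was -0.15, against 0.01 for all genes, with 7 of the 43 values positive. Without wt 10 min replicate 1 the median was -0.023 with 18 positive, without hen2-4 10 min replicate 2 it was -0.077 with 13 positive, without hen2-4 10 min replicate 3 it was -0.23, and without wt 10 min replicate 3 it was -0.21 with 0 positive. In the same comparison all 5 root markers (median -0.49), all 5 dividing-cell markers (median -0.47) and all 23 plastid ribosomal protein genes (median -0.32) had negative values, and their part was not tested. edgeR called 0 of the 43 higher (background 1.30%) and 0 lower (0.286%), with 1 at an unadjusted p of 0.05 and 0 by limma voom or DESeq2. In 3 genes all hen2-4 values lay below all wt values (8.78% of all genes): AT5G07090 at -0.27, RPS6 at -0.41 and AT5G28060, an S24 gene, at -0.43. RPS6, for one, had 32.1, 26.9 and 32.2 CPM in hen2-4 at 10 min, against 41.6, 40.2 and 39.3 CPM in wt at 10 min.

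At 30 min the hen2-4 and wt levels were close, with a median log2 difference of 0.03, against -0.03 for all genes. edgeR called 0 higher (1.05%) and 0 lower (0.260%), with 2 at an unadjusted p of 0.05 and 0 by the other tools. AT4G30800 was the gene whose hen2-4 values all lay above the wt values (7.64% of all genes, and 6.33% for the opposite order, which no gene of the set showed), by 0.67 on the log2 scale (edgeR adjusted p = 0.144). The median was -0.07 without wt 30 min replicate 1, -0.06 without wt 30 min replicate 2 and -0.03 without hen2-4 30 min replicate 3. Without wt 30 min replicate 3 it was 0.26, and AT4G30800 (0.86, edgeR adjusted p = 0.0393) and XW6 (AT1G58380, S2, 0.78, edgeR adjusted p = 0.032) were called.

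In rrp4-2 against wt at 30 min, no ribosomal protein gene passed the test at gene level. The median was -0.17, against -0.01 for all genes, with 35 of the 43 negative, but it was 0.04 with 28 positive without wt 30 min replicate 3, -0.29 without wt 30 min replicate 1, and -0.05 with 14 positive under library sizes alone. edgeR called 0 higher (2.97%) and 0 lower (1.36%), with 1 at an unadjusted p of 0.05 and 0 by limma voom. DESeq2 called AT5G28060 (S24) lower (-0.65, adjusted p = 0.0444, against an edgeR value of -0.63 and adjusted p = 0.103). DESeq2 called 3.17% of all genes lower in this comparison. AT5G28060 had 133, 121 and 116 CPM in rrp4-2, against 140, 181 and 251 CPM in wt at 30 min, which did not overlap. Of the other genes with separate groups, RPS10B (-0.32) lay lower in rrp4-2 (8.43% of all genes) and AT4G30800 (0.37) higher (11.2%). In the same comparison all 5 root markers had negative values (median -0.94) and all 5 dividing-cell markers positive ones (median 0.34). Of 4 shoot markers 2 were positive and 2 negative (median 0.19), and the part of these markers was not tested. Among 15 further cytosolic ribosomal protein genes outside the list, the median was -0.02, with 6 values positive and 9 negative.

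Between the mutants at 30 min, rrp4-2 against hen2-4, the median was -0.21, against 0.02 for all genes, and 4 of the 43 values were positive. Without hen2-4 30 min replicate 3 the median was -0.11 with 12 positive, and with library sizes alone 8 were positive. edgeR called 0 higher (0.254%) and 0 lower (0.138%), with 2 at an unadjusted p of 0.05 and 0 by limma voom or DESeq2. In 13 genes all rrp4-2 values lay below all hen2-4 values (11.5% of all genes). Root marker sums were 53.5 to 69.2 CPM in rrp4-2, against 106 to 117 CPM in hen2-4 at 30 min, and their part was not tested. The 15 further cytosolic ribosomal protein genes had a median of 0.05, with 8 values positive and 7 negative. The mutant comparisons share libraries with the time comparisons and with each other, so their values are not independent.

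The separate TCs gave a similar count. In hen2-4 at 30 min against 10 min, 9 of the 70 TCs were higher (background 12.1%) and 1 was lower (9.25%). The 9 were the main TCs of the 6 genes above and of RPS13A, AT2G40590 (S26) and RP1, and the lower one was the 3′ UTR TC of AT2G09990. In wt 0 were higher (11.5%) and 0 lower (7.28%). The median log2 change of main TCs was 0.42 in hen2-4 and 0.19 in wt, and that of minor TCs was -0.27 in hen2-4 and -0.13 in wt. In hen2-4 against wt, 0 TCs were higher (5.51%) or lower (0.789%) at 10 min and 0 were higher (5.16%) or lower (0.675%) at 30 min. These TC counts are edgeR's, the one tool run on TC levels, and at an unadjusted p of 0.05 there were 3 TCs in wt over time, 3 in hen2-4 against wt at 10 min and 4 at 30 min.

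In rrp4-2 against wt at 30 min, 0 TCs were higher (7.53%) and 1 was lower (2.43%), a minor TC in a coding exon of P40 (chromosome 1, 27243927 to 27244160, minus strand, 0.117% of the gene's tags). It had 1.22, 1.22 and 1.74 CPM in rrp4-2, against 2.13, 2.53 and 3.44 CPM in wt at 30 min. The groups did not overlap (log2 -0.95, SE 0.28, edgeR adjusted p = 0.0414), but the call was lost in 8 of 18 alternative settings, among them leaving out rrp4-2 replicate 1 or 2 or wt 30 min replicate 2 or 3.

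Capped tags on the strand opposite to the gene were found in 9 TCs near 8 of the 43 genes, 7 of them upstream and counted in a neighbouring gene, and 2 inside P40 and RPS15 (AT1G04270). The one call among them was the TC upstream of AT5G18380, counted in the neighbour AT5G18390, which was lower in wt at 30 min than at 10 min (log2 -0.84, edgeR adjusted p = 0.0199), in a comparison where 7.28% of all TCs were called lower.

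The rest of the translation machinery was described by lists of genes. Among the same 15 further cytosolic ribosomal protein genes the median log2 time change was 0.46 in hen2-4 and 0.14 in wt, with edgeR calling 0 in either. At an unadjusted p of 0.05 there were 6 of the 15 in hen2-4 and 0 in wt, DESeq2 called 3 in hen2-4 and 0 in wt, and limma voom called 0 in both. Elongation factor genes had medians of 0.47 in hen2-4 and 0.20 in wt, with 3 of 9 called higher in hen2-4 and 1 of 9 in wt (12.0% and 12.2% of all genes). AT5G12110, which encodes a subunit of the elongation factor eEF1B, was called in both genotypes. It averaged 1542 ± 68.7 CPM in hen2-4 at 30 min and 87.5 ± 7.96 CPM at 10 min, and 1551 ± 305 CPM in wt at 30 min and 84.4 ± 7.58 CPM at 10 min (SD, n = 3 each), log2 changes of 4.14 and 4.20 (edgeR adjusted p = 2.91e-09 and 2.17e-09). The highest log2 change among the 43 ribosomal protein genes was 1.07.

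Of 10 genes for initiation factors and poly(A)-binding proteins, 2 were called higher over time in hen2-4 (median 0.40) and 1 in wt (median 0.21), against 12.0% and 12.2% of all genes. EIF4A-2, a gene for the helicase that unwinds mRNA leaders, had log2 changes of 0.69 in hen2-4 and 0.76 in wt (edgeR adjusted p = 0.0236 and 0.0153). EIF4E, the gene of a cap-binding protein, had 0.67 in hen2-4 (edgeR adjusted p = 0.0104) and 0.21 in wt (0.419). ELF5A-1 was lower in rrp4-2 than in wt at 30 min, with 21.4 ± 3.48 CPM in rrp4-2 and 41.5 ± 6.94 CPM in wt (SD, n = 3 each, log2 -0.96, edgeR adjusted p = 0.00267). Ribosome biogenesis factors had medians of 0.58 in hen2-4 and 0.20 in wt, with 1 of 8 called higher in each (12.0% and 12.2% of all genes), both annotated as NOP56-like pre-RNA processing proteins: AT5G27120 at 0.68 in hen2-4 (edgeR adjusted p = 0.0109), and AT3G12860 at 0.93 in wt (edgeR adjusted p = 0.0441).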

How the data were processed

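CAGE libraries of 5 groups of 3 pools were analysed. The authors trimmed reads to 25 bases, mapped them uniquely to TAIR10 with Bowtie 1.1.2, joined 5′ ends within 20 bp into tag clusters (TCs) with CAGEfightR, and deposited whole-number counts of tags per TC and per gene, kept at 1 TPM in at least 3 of all their libraries. In each of the deposited files, 9 count columns matched no sample used here and were left out. Columns held no comparisons of the authors. Library totals in genes were 13904125 to 24753128 tags.

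Counts were fitted with edgeR 4.0.16 (quasi-likelihood, TMM factors 0.821 to 1.14, filterByExpr, 1 coefficient per group, all 15 libraries) in R 4.3.3, with p-values adjusted by Benjamini-Hochberg over all 18879 genes or 26504 TCs. A call needed an adjusted p of at most 0.05, and for the stricter rule a log2 change of at least 1. TC use within genes was tested with limma 3.58.1 (voom and diffSplice) on TCs with at least 10% of a gene's tags in 3 libraries. Limma voom, DESeq2 1.42.0, other scalings, filters, fits and left-out libraries were alternatives. Replicates are separate pools treated together, so p-values measure the spread between these pools.

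The ribosomal protein genes and the other gene lists were chosen with earlier results of these data known. Named genes were those called, the 3 highest and lowest levels, the 3 narrowest and broadest main TCs, genes with several TCs or changed TC use, and families whose paralogs differed in call or sign. Genes with groups that did not overlap or an unadjusted p of at most 0.05, RP1, AT5G02870, the minor TC of P40, the genes whose sequences are printed and the opposite-strand TCs were chosen after their values were seen. Protein families follow the Arabidopsis naming, and gene symbols and sequences come from the RefSeq annotation of TAIR10.1, whose coordinates match TAIR10. Values of 1 of the 43 genes and the shares of its family are not reported here, though it enters the counts and medians of the set.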

Additional observations from a re-analysis of the deposited data

How the results depend on the processing

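Scaling by library sizes alone moved the all-gene median over time to -0.25 in wt and -0.24 in hen2-4. It gave ribosomal protein gene medians of -0.088 in wt and 0.13 in hen2-4. This scaling gave 1 gene lower in wt (RPS6, background 18.1%), 1 higher in hen2-4 (7.3%) and 0 higher with the fold limit. At TC level it gave 1 TC lower in wt, 1 higher in hen2-4, 1 higher in hen2-4 against wt at 30 min and 0 lower in rrp4-2. Of all genes called over time, 31.3% were higher in wt under it, against 61.3% with TMM, and 26.4% in hen2-4, against 55.0%. DESeq2 called 10 genes higher in hen2-4 over time (background 13.2%) and 1 lower in rrp4-2 against wt (3.17%). In hen2-4 over time limma voom called 8 higher (12%), and a fit of the compared groups alone 7 (12.4%). The cause of these shifts was not tested.

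With each library left out in turn, the counts ranged from 0 to 2 higher in wt over time, 1 to 13 higher in hen2-4 and 0 to 2 with the fold limit, 0 to 2 higher in hen2-4 against wt at 30 min, and 0 to 1 lower in rrp4-2 against wt. For TCs they ranged from 0 to 2 higher and 0 to 1 lower in wt, 1 to 15 higher and 0 to 1 lower in hen2-4, 0 to 1 lower in hen2-4 against wt at 10 min, 0 to 2 higher at 30 min, and 0 to 2 lower in rrp4-2 against wt.

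The replicate numbers did not pair the libraries (10 of 30 correlations of same-numbered deviations over 0.1, median 0.00612). The replicate block gave 8 genes higher in hen2-4 (background 11.6%), 5 of the 6 among them, with RPS10B at an edgeR adjusted p of 0.0504. No comparison of the ribosomal protein genes changed direction of a called value under any alternative run. Each group has 3 pools.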

Other observations

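Ribosomal protein genes for the plastid, which serve a bacterial-type ribosome, had median log2 time changes of -0.01 in hen2-4 and -0.10 in wt over 23 genes, with edgeR and limma voom calling 0 in either and DESeq2 calling 1 in each (1 in hen2-4 and 2 in wt at an unadjusted p of 0.05). In wt 21 of the 23 values were negative, while 40 of the 43 cytosolic genes were positive, although the cytosolic count was 18 without wt 30 min replicate 3. The plastid count was not recomputed without this library. Its plastid sum was the lowest of its group, 6200 CPM against 7312 and 7837 CPM in wt 30 min replicates 1 and 2. EMB3136 averaged 279 ± 40.8 CPM in hen2-4 and 476 ± 43.7 CPM in wt at 10 min (SD, n = 3 each), and was lower in hen2-4 (log2 -0.77, edgeR adjusted p = 0.0136). The genes for the ribosome-bound scaffold RACK1 and for TCTP had medians of 0.57 in hen2-4 and 0.27 in wt over 4 genes, with RACK1C (AT3G18130) called higher in hen2-4 (0.63, edgeR adjusted p = 0.0437).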
